A study of Mus musculus with 3 samples.

Results

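Sites for miR‐124‐3p were examined in the 3′UTR regions under peaks of an Ago2 immunoprecipitation from N2A cells. A member was a 3′UTR stretch, 8 nt or longer, that lay under same-strand peaks in at least 2 of the 3 libraries and held a match to positions 2 to 8 of the miRNA. The members were thus chosen by the peak coverage itself together with the sequence, so their coverage in the libraries that chose them is a description and was not tested. Of 30343 such stretches in 3′UTRs, 348 (1.15%) held a match. They carried 356 matches in 324 genes. The other 63 matches in the same 3′UTRs, which lay in 52 of those 324 genes, served as the comparison.

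The samples were 3 HITS‐clip libraries of untreated N2A cells, a mouse neuroblastoma line, which form a single group with no control immunoprecipitation among the samples. HITS‐clip uses ultraviolet light to crosslink protein to RNA in intact cells, here at 400 mJ per square cm and then 2 times at 200. It sequences the RNA that comes down with an antibody, here clone 2D4 against Ago2. Each sample came from about 60000000 cells. Peaks carry coordinates and a score but no read counts, so the depth behind a peak is unknown. The libraries held 711377, 498071 and 829936 peaks. Of 15 neuroblast or neuronal marker genes, 10 had a stretch covered in at least 2 libraries in the 3′UTR, among them Phox2a, Hand2 and Mycn, against 4 of 15 markers of other cell types, among them Ptprc and Pdgfra. Across all 21022 genes with a 3′UTR the share was 34.6%.

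miR‐124 is an abundant miRNA of the mature brain that rises as neural precursors become neurons. Loaded into an Argonaute protein, a miRNA pairs through its seed, the bases near its 5′ end, with complementary sites in 3′UTRs, and the mRNA is then destabilised or translated less. An adenosine that follows the seed match, opposite the first base of the miRNA, makes the site an 8mer, which is on average more effective than the same match without it, a 7mer-m8. Among its long-studied targets are Ptbp1, a splicing repressor that is switched off in neurons, and Ctdsp1, a phosphatase that works with the REST repressor of neuronal genes.

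The sequences below, from GRCm38, are the 8mers whose 7 seed-matched bases were covered by the deposited peaks of all 3 libraries, the most that 3 libraries allow. The match to seed positions 2 to 8 and the following A are in capitals, and the strand shown is that of the mRNA.
Ddx6, chr9:44636910-44636939, plus strand: acttatttgtgcgaaGTGCCTTAtgctaca
Aff4, chr11:53416947-53416976, plus strand: cccgtcatgtctggtGTGCCTTAaatctta
Gdap2, chr3:100206790-100206819, plus strand: attcaggctctgtgtGTGCCTTAgtgagtg
Edem1, chr6:108856509-108856538, plus strand: atggactttagattaGTGCCTTAtgggttt
Pttg1ip, chr10:77598673-77598702, plus strand: acaccatcacaccccGTGCCTTAgttttta
Slc16a1, chr3:104656003-104656032, plus strand: tgaagattataatatGTGCCTTAagtttta
Man2a1, chr17:64753363-64753392, plus strand: atatcaaaaataaatGTGCCTTAttttttt

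A second set shows 7mer-m8 and 8mer members of genes with known roles in this pathway or with a site for another miRNA beside the match, and Vim, whose whole 3′UTR was covered. Capitals mark the same bases.
Ago2, chr15:73097832-73097861, minus strand: ctttttatttattttGTGCCTTttatgtta
Ago2, chr15:73104085-73104114, minus strand: actgttaagtaaggtGTGCCTTgctttaag
Ptbp3, chr4:59475838-59475867, minus strand: ttaatttcttattatGTGCCTTAttatgtg
Ptbp3, chr4:59473154-59473183, minus strand: aggaccaaagtttatGTGCCTTcttcagta
Cebpa, chr7:35121422-35121451, plus strand: ctctgtgtcccagcgGTGCCTTgtgcaatg
Vamp3, chr4:151048803-151048832, minus strand: cccacattttgcacaGTGCCTTtacagatt
Vim, chr2:13582579-13582608, plus strand: gaaaacagctttcaaGTGCCTTtactgcag

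The 3′UTRs held 3160 matches to GTGCCTT, searched on the mRNA strand only, in 2673 genes. Of these, 356 lay inside stretches of at least 2 libraries, which is 11.3% (95% Wilson interval 10.2% to 12.4%, counting error only). Over all 7-nt windows of the 3′UTRs, 9.8% lay inside such stretches. In the single libraries 6.23%, 19.1% and 19.1% of matches were covered, against 6.35%, 17.0% and 16.8% of windows. Matches were thus covered slightly more often than 3′UTR sequence in general in replicates 2 and 3 and slightly less often in replicate 1. With the peaks' strand reversed, 19 matches (0.601%) were inside. Of the 2673 3′UTRs with a match, 324 (12.1%) held a member, or 23.8% of the 1361 that had a match and any stretch of at least 2 libraries.

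A 3′UTR that is widely covered will have its matches covered too. To set this aside, the matches inside were divided by the number expected if each match lay at a random place of its own 3′UTR. This coverage ratio was 1.05 for at least 2 libraries, with 338.7 matches expected and a 95% Poisson interval of 0.945 to 1.17. In the single libraries the ratios were 0.959, 1.02 and 1.02 (mean 1.00 ± 0.0367, SD, n = 3). The ratio of 1 that random placement would give lay inside both spreads. Base composition moves this ratio as well. Among 4445 7-mers with the same number of A and T letters, 3, the median ratio was 0.863 (quartiles 0.800 to 0.941). The ratios of this ranking count a match shared by overlapping genes once for each gene. Counted so, the miR‐124‐3p match had 1.03 and ranked 501.

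The matches of 9 other miRNAs were set beside those of miR‐124‐3p. They had ratios for at least 2 libraries from 1.00 for miR‐9‐5p, another brain miRNA, to 1.57 for miR‐92a‐3p, and miR‐16‐5p at 1.05 was next to miR‐124‐3p. The seed of miR‐17‐5p, which like miR‐92a‐3p comes from a cluster of growth-promoting miRNAs, had 1.47. In the single libraries miR‐92a‐3p had 1.32, 1.38 and 1.28, and miR‐17‐5p had 1.26, 1.33 and 1.23. All of these lay above every library's value for miR‐124‐3p. Seeds differ in base composition, so each was also ranked among the 7-mers with its own number of A and T letters. As above, the ranks count a match shared by overlapping genes once for each gene, and the printed ratios do not. Of 4445 7-mers with 3 such letters, let‐7a‐5p ranked 195, miR‐16‐5p 463 and miR‐124‐3p 501. Of 4480 with 4, miR‐92a‐3p ranked 10, miR‐17‐5p 27, miR‐19b‐3p 202 and miR‐9‐5p 2243. Of 2688 with 5, miR‐23a‐3p ranked 199, miR‐30a‐5p 274 and miR‐21a‐5p 833. The order of the raw ratios thus does not hold for every pair of seeds once composition is matched. For example, let‐7a‐5p (ratio 1.15) stood nearer the top of its class than miR‐21a‐5p (ratio 1.19). The pair of miR‐16‐5p and miR‐124‐3p shares a class, so composition does not account for their change of order. With 3 libraries an exact paired test could not have reached significance, so none was made.

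**Figure D1:**
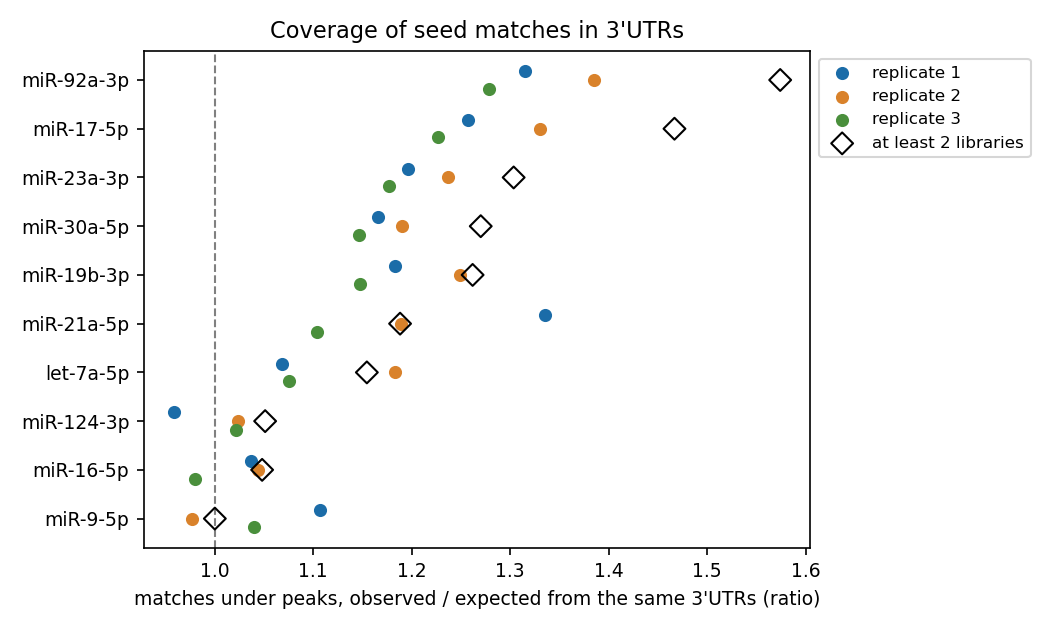
Coverage ratio (x axis: matches under peaks over the number expected from the same 3′UTRs) for the seed matches of 10 miRNAs (y axis). Filled points are the 3 libraries and diamonds are stretches of at least 2 libraries; the dashed line at 1 is random placement. miR‐124‐3p sits at 0.959 to 1.05, miR‐9‐5p spreads from 0.977 to 1.11, and miR‐92a‐3p reaches 1.57.

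The position of the matches within the peaks was compared with miR‐92a‐3p and miR‐17‐5p, the pair with the highest ratios. This pair was picked by coverage under the same peaks, which is not independent of position in them. The contrast is thus a description, and the other seeds were not profiled. Matches of miR‐92a‐3p and miR‐17‐5p gathered at the middle of peaks, and those of miR‐124‐3p were no denser there than to the sides. The density of a match within 30 nt of the peak midpoint was divided by its density 90 to 150 nt away. For miR‐124‐3p this was 0.831, 0.987 and 0.922 in replicates 1, 2 and 3 (mean 0.913 ± 0.0785, SD, n = 3). For miR‐92a‐3p it was 1.56, 1.59 and 1.35 (mean 1.50 ± 0.131), and for miR‐17‐5p 1.33, 1.39 and 1.32 (mean 1.35 ± 0.0347). The mean over all 7-mers with 3 A or T letters, as in the miR‐124‐3p match, was 0.831, 0.894 and 0.861, so miR‐124‐3p was level with it in replicate 1 and above it in replicates 2 and 3. Over 7-mers with 4 such letters, as in the other seeds, it was 0.967, 1.00 and 0.990, below every value of miR‐92a‐3p and miR‐17‐5p. Inside the members the median distance of a match from the middle of its stretch was 28.5 nt, against 30 nt for all places where the match could have lain. In 47.2% of members the match was nearer to the middle than the median placement.

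**Figure D2:**
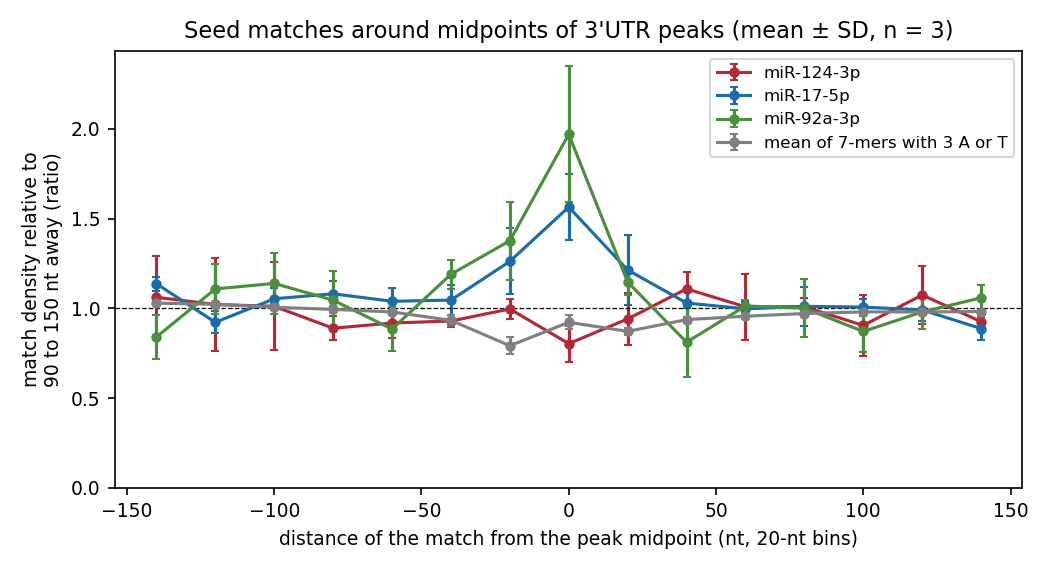
Density of seed matches around the midpoints of 3′UTR peaks, in 20-nt bins by distance (x axis, nt) and relative to the density 90 to 150 nt away (y axis, ratio); points and bars are the mean ± SD of 3 libraries. The curves of miR‐17‐5p and miR‐92a‐3p rise at the midpoint, and that of miR‐124‐3p does not. Grey is the mean of 7-mers with as many A and T letters as the miR‐124‐3p match. At -30 to -10 nt miR‐124‐3p lies above grey in each library (1.01, 1.05 and 0.938 against 0.756, 0.845 and 0.774). At -10 to 10 nt it lies below grey in each (0.710, 0.909 and 0.791 against 0.885, 0.963 and 0.918).

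The density of the match inside peaks against outside them in the same 3′UTRs gave log2 ratios of -0.05, 0.12 and 0.16 in the 3 libraries (mean 0.08 ± 0.11, SD, n = 3, pseudocount 0.5). One library thus lay below 0 and the others above. Without replicates 1, 2 and 3 in turn the mean was 0.14, 0.06 and 0.04, and with trimmed peaks it was -0.04. For at least 2 libraries the log2 density ratio was 0.12, which ranked 523 of 4461 7-mers of the same A and T content.

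Coverage was also compared by the type of site. Among matches followed by A (8mers), 79 of 581 (13.6%) were inside, and among the other 7-base matches (7mer-m8) 277 of 2579 (10.7%). The 8mer ratio was 1.15 (95% Poisson interval 0.911 to 1.43), with 1.08, 1.08 and 1.12 in the single libraries (mean 1.09 ± 0.0212, SD, n = 3). The 7mer-m8 ratio was 1.03, with 0.928, 1.01 and 0.999 in the libraries (mean 0.978 ± 0.0436). In each of the 3 libraries the 8mers were thus covered more than the 7mer-m8 matches, yet the interval of the 8mer ratio included 1. It fell to 0.612 for stretches of all 3 libraries, where 6 matches were inside with their A, and to 0.820 without replicate 3. For at least 2 libraries the ratio was 0.917 for 7mer-A1 matches, 0.884 for 6mers and 0.791 for offset 6mers (positions 3 to 8). In the single libraries the 7mer-A1 ratios (mean 0.965 ± 0.0656, SD, n = 3) overlapped with those of the 7mer-m8 matches. A form with an extra G bulged between positions 5 and 6, TGGCCTT on the mRNA, had 0.807. Peak starts and stops ran up to 30 nt past the ends of a chromosome, so each peak appears to carry that much padding at both ends. Trimming it off left 31 8mers inside with a ratio of 1.45 (95% Poisson interval 0.987 to 2.06), while the ratio over all matches was 0.936.

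**Figure D3:**
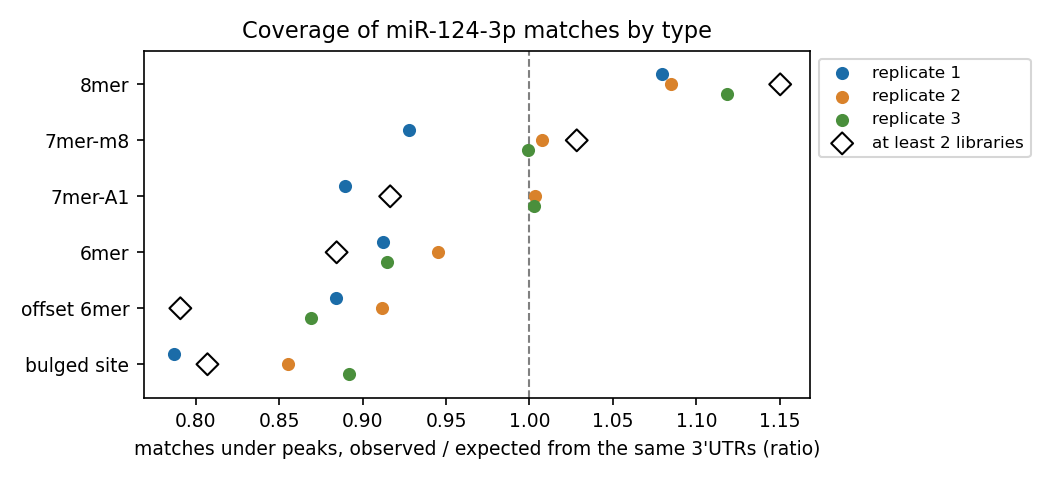
Coverage ratio (x axis) of 6 kinds of match to miR‐124‐3p (y axis). Filled points are the 3 libraries, diamonds are stretches of at least 2 libraries and the dashed line at 1 is random placement. The 8mer points lie at 1.08 to 1.12, and the bulged and offset forms lie below 1 in every library.

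The base after the match was not used to choose members. It made an 8mer of 79 of 356 members (22.2%) and of 12 of 63 other matches of their 3′UTRs (odds ratio 1.21, Fisher's exact test, two-sided, p = 0.740, adjusted p = 0.864). The odds ratio was 0.762 in stretches of all 3 libraries and 0.952 without replicate 1, and above 1 under the other alternatives tried. Fisher's tests here and below count each match as independent, although some share a 3′UTR, and do not pair matches within a 3′UTR. All adjusted p-values here are Benjamini-Hochberg values over 7 tests.

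The libraries contributed unequally. Replicates 1, 2 and 3 covered 121, 314 and 333 of the 356 member matches. Replicates 2 and 3 alone covered 235, replicates 1 and 3 alone 42, replicates 1 and 2 alone 23, and all 3 libraries 56 (15.7%). Over all 7-nt windows inside stretches 16.5% were in all 3 and 64.4% in replicates 2 and 3 alone. Replicate 1 also covered the fewest places, 6.35% of 3′UTR windows against 17.0% and 16.8% in the others. Of the 3160 matches, 2169 were covered in no library, 635 in 1, 300 in 2 and 56 in 3. At the edge of the rule, 32 of the 63 other matches were covered in 1 library, 31 in none, and 32 matches in all 3′UTRs overlapped a stretch in part. The shortest member stretches were in Ythdf3 (18 nt) and Spag16 (19 nt).

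Whether members were also found in a library that did not choose them was tested 3 times. Matches inside stretches of replicates 2 and 3 were covered in replicate 1 in 19.2% of 291 cases, against 5.36% of the 56 other matches in those 3′UTRs (odds ratio 4.21, Fisher's exact test, two-sided, p = 0.0106, adjusted p = 0.0738). With replicate 2 as the outcome the shares were 57.1% of 98 and 50% of 28 (Fisher's exact test, adjusted p = 0.735). With replicate 3 they were 70.9% of 79 and 52.4% of 21 (Fisher's exact test, adjusted p = 0.433). The direction was the same in all cases and none passed after adjustment. These tests pool the matches of many 3′UTRs, so differences between 3′UTRs and within them are mixed. Any 7-nt windows chosen the same way showed a gap as well, with 23.0% against 11.2% in replicate 1, 69.9% against 45.1% in replicate 2 and 70.2% against 44.3% in replicate 3. With the trimmed peaks the odds ratios in replicates 1 and 2 fell below 1, to 0.642 and 0.521, and with peaks limited to 86 to 200 nt that in replicate 1 fell to 1.63.

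Member stretches were 18 to 3664 nt long, with a median of 125 nt against 86 nt for all stretches. A longer stretch has more room for a match: over all windows in stretches the median length was 129 nt, and over member matches 127 nt. There were 8 stretches over 1000 nt and 8 that held more than 1 match. The 3′UTRs of members were long, with a median of 2819.5 nt against 2194 nt for all with a match. Members lay along the whole 3′UTR. The first 20% of the 3′UTR held 23.0% of them and the last 20% held 19.4%, and the windows of all stretches gave 22.9% and 20.1%.

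The sequence around the match was compared within the 52 3′UTRs that held both a member and another match. Argonaute sites tend to be more effective in A- and U-rich surroundings. The share of A and U in the 30 nt on each side had a median of 58.3% over all 356 members, also those of other 3′UTRs. Over the 63 other matches it was 53.3%. Within 3′UTRs, the share was higher in members in 29 of the 52, lower in 20 and equal in 3, with a median difference of 2.5 percentage points (exact binomial sign test, two-sided, p = 0.253, adjusted p = 0.581). All windows of the same 3′UTRs were richer in A and U inside stretches than outside in 46 of 52, with a median difference of 5.09 points. The difference for matches was not tested against that for windows. Without replicates 1, 2 and 3 in turn it was 5, 0 and 6.67 points, and with trimmed peaks 7.5 points.

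**Figure D4:**
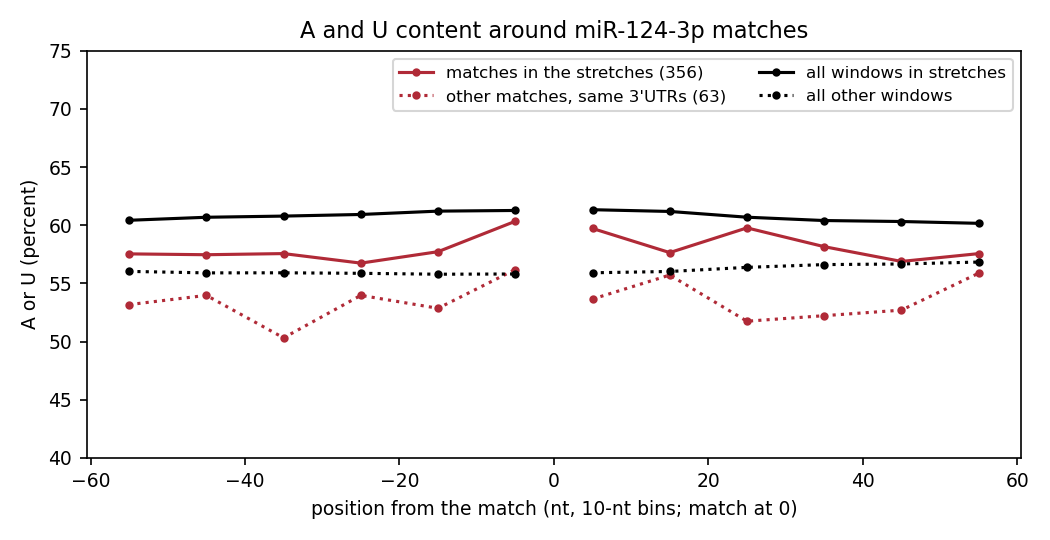
Mean share of A and U (y axis, percent) by position from the match (x axis, nt, 10-nt bins) for 356 member matches, 63 other matches of the same 3′UTRs, and all 7-nt windows inside and outside stretches. The member line lies above that of the other matches and below that of all windows in stretches. The line of all windows in stretches lies above that of all other windows.

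Predicted pairing was compared in the same way. The mean probability that the 7 bases were unpaired had a median of 48.2% over all 356 members and 48.3% over the 63 other matches. It was higher in members in 27 of 52 3′UTRs, with a median difference of 0.929 points and quartiles from -15.6 to 11.6 (exact binomial sign test, two-sided, p = 0.890, adjusted p = 0.890). Without replicates 1, 2 and 3 in turn the difference was 1.47, -6.21 and -7.05 points. Windows were more often unpaired inside stretches than outside in 41 of the 52 3′UTRs, with a median difference of 2.67 points. The distance to the nearer end of the 3′UTR had a median of 567.5 nt over all 356 members and 771 nt over the 63 other matches. Members were nearer in 30 of 52 3′UTRs, with a median difference of -154 nt (exact binomial sign test, two-sided, p = 0.332, adjusted p = 0.581). Windows inside stretches were nearer to an end than windows outside in 41 of the same 52 3′UTRs, with a median difference of -136 nt. Leaving out replicates 1, 2 and 3 in turn gave -84, -242 and -5 nt for the matches. Of the 7 tests none passed after adjustment.

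Among the named members, Ddx6 belongs to the repression machinery that miRNAs recruit, as an RNA helicase of the CCR4-NOT pathway. Its 8mer lay 443 nt after the stop codon in a 3′UTR of 4250 nt. Where several peaks of a library held a match, the narrowest is given here. Peaks of 92, 92 and 95 nt covered the 7 seed-matched bases in replicates 1, 2 and 3, with the match 42.5, 42.5 and -38 nt from the peak midpoints (negative values are 5′ of the midpoint). The match was thus at the edge of these peaks, and the part shared by all 3 libraries was 13 nt. In Aff4, a scaffold of the super elongation complex, the shared part was 19 nt, and in Gdap2 21 nt.

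The place of the match in the peak varied between libraries in the other genes. In Edem1, which helps to clear misfolded glycoproteins from the endoplasmic reticulum, it was -29, 2 and 23.5 nt from the midpoints of peaks of 97, 93 and 112 nt. In Slc16a1, the monocarboxylate transporter MCT1 and a known target, the distances were 16.5, 28 and -70.5 nt and the shared part was 221 nt. Man2a1, a Golgi mannosidase, had 45, 12.5 and 12.5 nt. Pttg1ip and Gdap2 were covered in replicate 1 by peaks of 11222 and 1889 nt, which place a match far less closely than the peaks of 89 to 137 nt in the other libraries. The rule on names allowed 20 genes with an 8mer in all 3 libraries, and only these 7 exist. With peaks trimmed by 30 nt at each end, the match was still covered in 2 libraries in Pttg1ip and Slc16a1, in 1 library in the other 5 genes, and in all 3 libraries in none. Of the 356 member matches, 106 were then covered in no library, 148 in 1, 97 in 2 and 5 in 3.

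**Figure D5:**
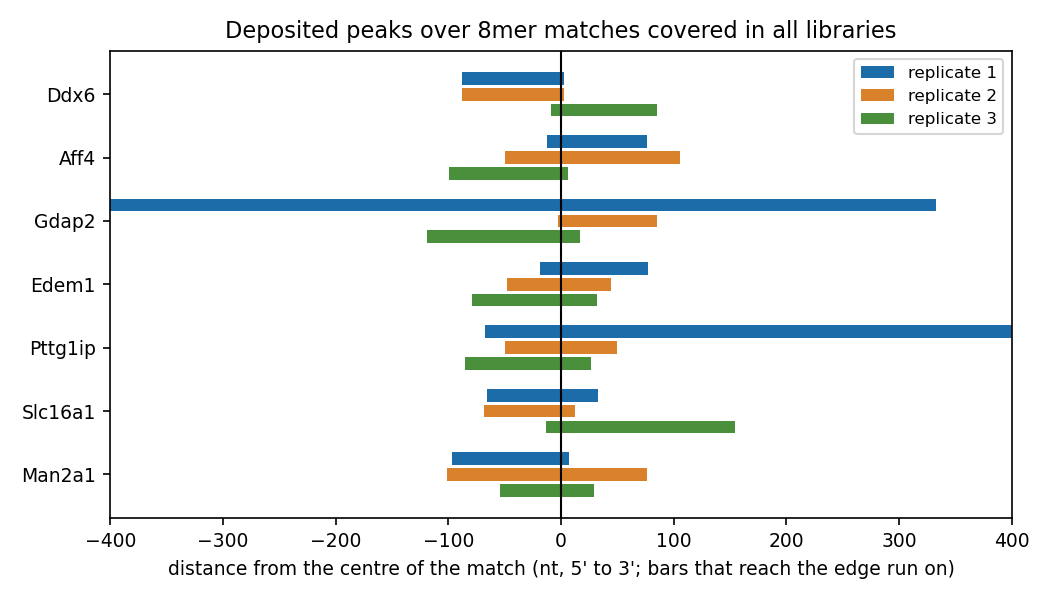
The narrowest deposited peak of each library (coloured bars) over the 8mer matches covered in all 3 libraries, by distance from the centre of the match (x axis, nt, line at 0). In Ddx6 the match lies at the end of the peaks drawn; the replicate 1 peaks over Gdap2 (1889 nt) and Pttg1ip (11222 nt) run past the axis.

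There were 24 genes with at least 2 member stretches, among them Ago2, Ptbp3, Lamc1, Edem1, Magt1, Sept10, Kpnb1, Smad5, Twsg1 and Slc7a1. Sites in 1 gene share its 3′UTR and its coverage and do not count as independent. In Magt1, a magnesium transporter subunit of the oligosaccharyltransferase complex, and in Sept10, a septin, both sites were 8mers covered in replicates 2 and 3.

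Of 25 genes listed as known miR‐124 targets, 21 had a match and 9 held a member: Itgb1, Lamc1, Vamp3, Sox9, Slc16a1, Iqgap1, Cebpa, Egr1 and Plod3. The share, 42.9%, was above the 12.1% of all 3′UTRs with a match, but the listed genes were also more covered. Their 12 covered matches of 35 compare with 9.08 expected from the coverage of their 3′UTRs. Peaks covered 68.5%, 87.7% and 95.5% of the 3′UTR of Itgb1, the integrin beta 1 chain, in replicates 1, 2 and 3, so that 1.91 of its 2 matches were expected inside and both were. Lamc1, a laminin chain, had 2 of 2 inside with 1.30 expected. Cebpa was the opposite case. This regulator of myeloid and fat cell genes had 5.53%, 5.27% and 5.14% of its 3′UTR covered, in peaks of 86, 82 and 80 nt that all held the same 1 of its 3 matches. That match lay near the peaks' ends and was covered in 0 libraries once they were trimmed.

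Several of the best-known targets were not among the members. Ptbp1 had its single 8mer covered in replicate 3 only, in a 3′UTR covered to 0%, 12.7% and 24.6%. Ctdsp1 had 5 matches and 0 covered in any library, and its 3′UTR lay under peaks of replicate 3 only, and there in small part. Low coverage of a whole 3′UTR cannot be told apart here from low expression of the gene. Cd164, a sialomucin, was widely covered (65.5%, 80.7% and 75.2%), and 1.58 of its 2 matches, both 8mers, were expected inside. Each of the 2 was covered in at most 1 library. Stat3 and Jag1 were covered at their match in 1 library each.

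Of 15 genes around the REST and PTBP switches of neuronal genes, 7 had a match and 2 held a member, with 3 of 13 matches inside and 2.29 expected. Rcor1, a REST corepressor, had 1 member. Ptbp3, a relative of Ptbp1, had both of its matches inside, 1 of them an 8mer, in replicates 2 and 3. Both matches of Ptbp2, the neuronal relative, were covered in replicate 3 only. Rest itself had 0 matches.

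Of 15 genes of the miRNA machinery, 7 had a match and 3 held a member (Ddx6, Ago2 and Tnrc6b), with 4 of 10 matches inside and 2.73 expected. The 3′UTR of Ago2, 11064 nt long, was covered to 25.9%, 80.8% and 75.3% and held both of its matches inside. The site nearer its end was covered in all 3 libraries, by peaks of 79, 113 and 98 nt. Ago1 and Ago3 had 1 and 2 matches, and 0 of them were covered in any library. Tnrc6b, a GW182 protein that bridges Argonaute and the deadenylases, had 1 of 2 inside.

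Of 27 actin and adhesion genes, 11 had a match and 5 held a member (Itgb1, Lamc1, Iqgap1, Vim and Myh9). The 7 of 15 matches inside stood against 6.92 expected. Vim, an intermediate filament protein, had its whole 3′UTR of 342 nt covered by replicates 2 and 3, so its match could not have lain outside. In each of the 4 lists the count inside was above the number expected from the coverage of the same 3′UTRs. The gaps were of fewer than 3 matches, on small expected counts of 2.29 to 9.08. The lists share genes: Itgb1, Lamc1 and Iqgap1, which hold 5 of the 7 actin and adhesion matches inside, and Rhog are also among the known targets, as are Ptbp1 and Ctdsp1 of the REST and PTBP list. The lists were not tested.

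Some members held sites for other miRNAs as well. Of the 348 stretches, 68 (19.5%) also held a match to at least 1 of the 9 other seeds, against 11.2% of all stretches, which were shorter. Per 100 kb of windows there were 116 such matches in member stretches and 129 in all stretches. In 21 genes such a match began within 30 nt of the miR‐124‐3p match. In Cebpa a miR‐92a‐3p match began 7 nt after the start of the miR‐124‐3p match, directly behind it in the sequence above. In Vamp3, a vesicle SNARE, a miR‐19b‐3p match began 8 nt before it, and in Ptbp3 a miR‐9‐5p match 12 nt before one of the pair. A peak over such a site does not show which of the miRNAs, if either, was bound.

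The miR‐124 genes were looked at for peaks of their own. Mir124a-1 (chr14:64590657-64590741), Mir124a-2 (chr3:17795662-17795770) and Mir124a-3 (chr2:180894040-180894107) had 0 peaks on either strand in all libraries. The host transcripts Mir124-2hg and Mir124a-1hg had 3, 6 and 1 and 1, 1 and 2 peaks on their strand in replicates 1, 2 and 3. A hairpin whose mature miRNA comes from several loci can lack peaks where reads that map more than once are dropped. Of 88 such hairpins, 35 (39.8%) had a peak in at least 1 library, against 541 of 917 (59.0%) with 1 locus. How such reads were treated was not given in the sources used here, so the lack of peaks is no measure of miR‐124 in these cells.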

How the data were processed

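The authors deposited 1 table of peaks for the 3 HITS‐clip samples, with coordinates, strand, a peak score and the sample. The deposited score was 60 for 98.9%, 99.3% and 99.6% of peaks in replicates 1, 2 and 3, has no stated unit and was not used. The submitters' processing notes name FastQC, cutadapt, STAR and mm10. The peak caller and its threshold are not given in the sources used here. The coordinates in the deposited table were read on GRCm38. Nothing states that the samples came from separate cultures, so the spread between them may be technical.

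The longest 3′UTR per protein-coding gene (GENCODE M21, stop codon excluded, 21022 genes) was joined across exons. The match, GTGCCTT on the mRNA, was taken from general knowledge of the seed and not from a file. A match shared by overlapping genes was counted once, which left 3160 of 3180. In the ranks among 7-mers and the log2 density ratio it was counted once for each gene. The 7 tests were Fisher's exact and exact binomial sign tests (scipy 1.17.1), adjusted by Benjamini-Hochberg, with a threshold of 0.05. Unpaired probabilities came from ViennaRNA 2.7.2 (window 80, span 40). Scripts in Python 3.11.15 were tested on simulated data. The alternatives tried were other library minimums, peak widths, trimming, stretch lengths, 3′UTR models and leaving out each library.

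The members and lists were chosen with earlier results of these data known. Named genes were those with an 8mer covered in all 3 libraries (the 20 shortest shared parts), those with at least 2 member stretches, and members of the 4 lists. Ythdf3, Spag16 and the genes with another seed nearby were named after their values were seen.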

Additional observations from a re-analysis of the deposited data

Results flagged for a closer look

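Coding sequence lay outside the comparisons above. There, 113 of 2720 miR‐124‐3p matches were inside stretches of at least 2 libraries. They are given because this region was not otherwise reported on, and they lie below the background, at 4.15% against 5.34% of all 7-nt windows of coding sequence. With 137 matches expected from the same coding sequences, the coverage ratio was 0.825, and 1.05, 0.985 and 0.941 in replicates 1, 2 and 3. Of the 113 matches 19 were 8mers. No test was made.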

How the results depend on the processing

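No test passed after adjustment under any alternative it was run with. The tests of coverage in the library left out need all 3 libraries, and so were not run with a library left out or for coverage in all 3. The number of member stretches was 348. It was 56 for coverage in all 3 libraries, 99 with trimmed peaks and 79 for 8mers only, and without 1 library it ranged from 79 (without replicate 3) over 98 (without replicate 2) to 285. The coverage ratio of 1.05 fell below 1 in all 3 libraries (0.999) and with trimmed peaks (0.936), and ranged from 0.919 to 1.13 without 1 library. The 8mer coverage ratio of 1.15, whose alternatives were chosen after seeing the data, was 0.612 in all 3 libraries, 1.45 with trimmed peaks, 1.09 when the peak width was limited to 86 to 200 nt, and 0.820 to 1.18 without 1 library. Trimming turned the odds ratios for coverage in replicates 1 and 2 to 0.642 and 0.521 and the log2 density ratio to -0.042. The 8mer odds ratio was 0.762 in all 3 libraries and 0.952 to 1.44 without 1 library. The unpaired probability difference turned to -6.21 percentage points in all 3 libraries and -2.62 with merged 3′UTR exons, and ranged from -7.05 to 1.47 without 1 library. Fewer members follow from fewer libraries or narrower peaks. For the other changes the cause was not tested. The log2 density ratio is taken per library and so has no value for another library minimum or stretch length. No paired analysis was possible because the samples form 1 group, so that no replicate number is shared between groups; the comparisons within 3′UTRs and within libraries are of another kind. With no read counts, a weakly bound site and an unbound one cannot be told apart.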

Other observations

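The density of the 9 other seed matches was compared between member stretches and all stretches. Matches of miR‐17‐5p occurred at 6.88 per 100 kb of 7-nt windows in member stretches and 18.5 in all stretches, those of miR‐30a‐5p at 9.63 and 18.6, and those of miR‐21a‐5p at 2.75 and 7.47. For miR‐19b‐3p the values were 17.9 and 14.1, and for miR‐92a‐3p 13.8 and 9.93. Closer values were found for miR‐16‐5p (24.8 and 24.7), let‐7a‐5p (8.25 and 7.63), miR‐23a‐3p (20.6 and 18.4) and miR‐9‐5p (11.0 and 9.97). The counts behind these are small, from 2 member stretches with a miR‐21a‐5p match to 17 with a miR‐16‐5p match, and the differences were not tested.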
